A study of Homo sapiens with 12 samples.

Results

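The 10 genes described here encode the core and ATPase subunits of the SWI/SNF chromatin remodelling complexes: the ATPases SMARCA4 and SMARCA2, the actin-related protein ACTL6A that binds them, and the core subunits SMARCB1, SMARCC1, SMARCC2, SMARCD1, SMARCD2, SMARCD3 and SMARCE1. They were picked by name, through their Ensembl identifiers, from the 57820 genes in the deposited tables, and all 10 passed the filter on low counts, SMARCB1 and SMARCA2 only through the groups with induced SMARCB1. RNA was sequenced from G401, an established human cell line from a malignant rhabdoid tumour, with the genotype SMARCB1(-/-) in every group. Doxycycline switched on SMARCB1 or, as control, GFP, and both cell states received, for 24 hours, the solvent DMSO or dBRD9-A, which makes cells degrade the bromodomain protein BRD9. The 4 groups were thus GFP with DMSO, GFP with dBRD9-A, SMARCB1 with DMSO and SMARCB1 with dBRD9-A, with 3 libraries each. The promoter and clonality of the induced constructs are not given in the sources used here. Nor are the time of doxycycline before treatment and the dose of dBRD9-A. Nothing in these sources says that the 3 libraries of a group came from separate cultures. The p-values thus set differences between groups against the spread between libraries within groups, estimated over the 4 groups together. That spread may be technical.

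SWI/SNF complexes use the energy of ATP to move or eject nucleosomes, and SMARCA4 and SMARCA2 are alternative motors of which a complex holds a single copy. SMARCC and SMARCD proteins form the scaffold on which the other parts assemble, SMARCB1 and SMARCE1 belong to the canonical BAF and the PBAF forms, and BRD9 marks the non-canonical BAF form, which has neither SMARCB1 nor SMARCE1. Loss of SMARCB1 is the defining lesion of malignant rhabdoid tumours. The values below are mRNA levels, and neither the proteins nor the assembled complexes were measured in these libraries.

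SMARCA4 and SMARCA2 are paralogs whose levels lay far apart in these data, and SMARCD1 and SMARCD3 are paralogs that changed in opposite directions with SMARCB1, so the 250 bases before their annotated starts are shown, 5′ to 3′ on the gene's strand, from RefSeq on GRCh38.p14. Capitals mark GGGCGG or its complement CCGCCC, the letters of a GC box. The windows are SMARCA4 at chr19:10960780-10961029 (+ strand), SMARCA2 at chr9:2015097-2015346 (+ strand), SMARCD1 at chr12:50085092-50085341 (+ strand), and SMARCD3 at chr7:151277150-151277399 and chr7:151248695-151248944 (- strand). They belong to the most upstream start of each gene in the table, and for SMARCD3 also to its most downstream start.
SMARCA4: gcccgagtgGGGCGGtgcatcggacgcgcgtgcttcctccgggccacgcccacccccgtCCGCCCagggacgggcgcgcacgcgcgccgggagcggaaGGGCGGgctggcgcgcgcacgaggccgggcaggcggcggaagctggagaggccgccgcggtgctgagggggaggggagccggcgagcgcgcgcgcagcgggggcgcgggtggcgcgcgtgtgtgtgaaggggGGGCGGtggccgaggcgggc
SMARCA2: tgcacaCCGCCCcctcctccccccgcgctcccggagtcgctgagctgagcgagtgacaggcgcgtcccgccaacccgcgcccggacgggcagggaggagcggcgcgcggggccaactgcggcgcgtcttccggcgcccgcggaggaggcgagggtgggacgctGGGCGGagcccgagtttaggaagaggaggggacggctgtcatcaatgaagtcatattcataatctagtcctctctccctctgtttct
SMARCD1: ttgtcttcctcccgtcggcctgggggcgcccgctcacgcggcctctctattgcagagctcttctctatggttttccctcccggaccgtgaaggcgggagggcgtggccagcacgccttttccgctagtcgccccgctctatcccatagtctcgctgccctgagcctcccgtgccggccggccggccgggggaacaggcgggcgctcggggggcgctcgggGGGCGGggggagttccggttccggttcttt
SMARCD3 upstream start: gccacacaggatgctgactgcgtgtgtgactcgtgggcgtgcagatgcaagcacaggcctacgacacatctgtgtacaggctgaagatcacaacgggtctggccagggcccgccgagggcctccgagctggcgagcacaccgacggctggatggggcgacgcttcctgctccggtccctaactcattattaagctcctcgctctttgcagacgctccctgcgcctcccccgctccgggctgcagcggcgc
SMARCD3 downstream start: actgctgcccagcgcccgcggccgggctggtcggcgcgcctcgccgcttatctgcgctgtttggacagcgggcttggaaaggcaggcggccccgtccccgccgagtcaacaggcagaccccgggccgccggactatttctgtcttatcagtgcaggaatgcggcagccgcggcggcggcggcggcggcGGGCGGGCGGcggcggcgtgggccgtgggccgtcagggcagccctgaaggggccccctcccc
The SMARCA4 window held 44 CpG dinucleotides and 4 GC boxes, and 99.2% of 35116 RefSeq promoter windows of that length held fewer CpG. SMARCA2, whose mRNA was near 0 in GFP cells, had 29 CpG and 2 GC boxes in its most upstream window (85.9% of windows held fewer CpG). The SMARCD1 window held 28 CpG and 1 GC box (84.1%). The upstream SMARCD3 window held 21 CpG and 0 GC boxes (69.8%), and its downstream window 34 CpG and 2 GC boxes that overlap each other (93.2%). The bases just after that downstream start were found in 0 GENCODE 29 transcripts of the gene. The third paralog SMARCD2, not shown, likewise had 0 GC boxes in its most upstream window, with 31 CpG (89.1%). Its next start had 42 CpG and 2 GC boxes (98.6%). GGGCGG or its complement lies in 42.6% of all such windows, whose median was 11 CpG, so these matches describe the sequences and name no factor. Other annotated starts of the genes shown held far fewer CpG. There were 4 in the second SMARCA4 window, 0, 1 and 8 in the other SMARCA2 windows and 1 in the middle SMARCD3 window, all with 0 GC boxes. A gene count does not tell which start was used. Promoters matched 7 of the 10 genes in the table used.

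Libraries held 34.97 to 58.54 megacounts (1e6 counts) assigned to genes, and synthetic ERCC spike-in RNAs made up 0.963% to 1.302% of all counts. Levels are given as counts per megacount of gene counts (CPM), on library sizes scaled by edgeR's TMM method (trimmed mean of M values), and the floor of 3 counts corresponded to 0.0516 to 0.0847 CPM. Among markers of the tumour line, VIM, KRT8 and KRT18 had 45667 to 154716 counts in GFP cells and 65312 to 135755 in SMARCB1 cells, and MUC1 had 2 to 17 counts over all libraries. The leukocyte markers PTPRC and CD3E were at 0 in all 12 libraries. HBB, ALB and the endothelial marker CDH5 had 0 to 10 counts, and CDH5 was at 0 in the GFP libraries and at 3 to 10 in the SMARCB1 libraries. PECAM1 was not analysed here. The part of that difference in the results was not tested. Counts of libraries from the same group differed beyond sampling noise (chi-square per degree of freedom 2.91 to 25.34), so each library was counted as a sample. The highest values, 25.34 and 10.68, were those of SMARCB1 dBRD9-A replicate 2 with the other libraries of its group, and the next was 7.8. In bulk RNA, fewer cells of a type and less RNA per cell cannot be told apart.

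SMARCB1 (ENSG00000099956.13) came first, since it checks the labels. It had 0 to 1 counts in the GFP libraries with DMSO and 1 to 2 counts in those with dBRD9-A, so none of these 6 libraries exceeded the floor. In SMARCB1 cells with DMSO the 3 libraries had 1807, 1912 and 1908 CPM. In SMARCB1 cells with dBRD9-A they had 1318, 1327 and 1277 CPM. The induced libraries were thus far above the GFP libraries, and those with dBRD9-A were all below those with DMSO. SMARCB1 mRNA was at least 25800-fold higher than in GFP cells in DMSO and at least 15400-fold higher in dBRD9-A. No p is given, since the gene passed the filter only through the groups where it is high. Its level per kilobase of coding sequence was 20.65 ± 0.379 times that of SMARCC1 in SMARCB1 cells with DMSO and 14.66 ± 1.01 times with dBRD9-A (SD, n = 3). Over the other core gene of the canonical complexes, SMARCE1, the same ratio was 14.62 in DMSO and 10.24 in dBRD9-A. These ratios depend on the length used: per kilobase of spliced transcript they were 27.34 and 19.41 over SMARCC1 and 50.58 and 35.43 over SMARCE1. A gene count does not tell the induced construct from the chromosomal gene, and coding length was used because the construct's other parts are not given.

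The remaining genes were then set in order of their level in GFP cells with DMSO, in CPM per kilobase of spliced transcript. ACTL6A (49.75) and SMARCC1 (48.68) came first and their libraries overlapped. SMARCA4 (40.15), SMARCD2 (37.54), SMARCE1 (23.54), SMARCD1 (17.89), SMARCD3 (16.55) and SMARCC2 (7.496) followed, each step without overlap between libraries. SMARCA2 and SMARCB1 were at the floor. The order depends on the length used: per kilobase of coding sequence SMARCE1 (118.3) came first, before SMARCC1 (93.62), ACTL6A (73.48) and SMARCD2 (64.01). By either length SMARCC2 was the lowest subunit above the floor in the GFP groups. In SMARCB1 cells with DMSO ACTL6A, at 59.12 CPM per kilobase of spliced transcript, no longer overlapped SMARCC1, at 39.95. The plot of levels by library shows all 10 genes in the 4 groups.

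**Figure D1:**
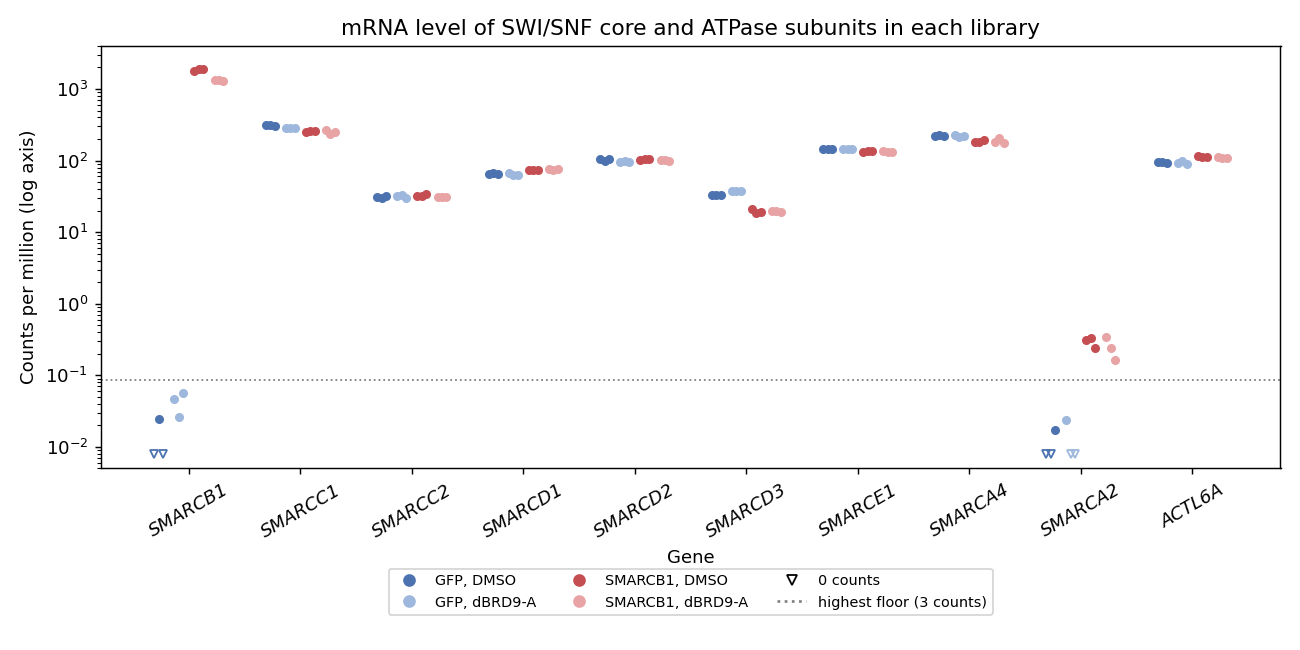
mRNA level of the 10 genes in each of 12 libraries, in CPM on a log axis. Points are libraries, open triangles are libraries with 0 counts, and the dotted line is the highest floor of 3 counts. SMARCB1 and SMARCA2 lie under the floor in all 6 GFP libraries and above it in all 6 SMARCB1 libraries, while the other 8 genes lie between 18.45 and 317.8 CPM.

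The effect of SMARCB1 was assessed first in DMSO, where 8 of the 10 genes passed an adjusted p of 0.05 in edgeR's quasi-likelihood test, 4 higher (SMARCB1, SMARCA2, SMARCD1, ACTL6A) and 4 lower (SMARCA4, SMARCC1, SMARCD3, SMARCE1). This share is not far from that of the 15750 genes tested, of which 65.0% passed, 33.5% higher and 31.6% lower. SMARCB1 and SMARCA2 had to differ once they passed the filter. Of the other 8 genes, 6 passed, 2 higher and 4 lower, with a median log2 fold change of -0.047 beside -0.005 for all genes tested. Scaling libraries to the spike-ins moved the median of all genes to 0.165. Of these 8 genes 5 then passed, 4 higher and only SMARCD3 lower. Of the 15750 genes tested 9412 passed with that scaling, 6831 higher and 2581 lower. Directions are therefore given here relative to the bulk of genes.

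Of the ATPases, SMARCA4 (ENSG00000127616.13) was the main one in every group. Its level was 218.7, 224.3 and 221.0 CPM in GFP cells with DMSO and 180.3, 179.5 and 193.5 CPM in SMARCB1 cells with DMSO. The 3 SMARCB1 libraries were all below the GFP libraries. SMARCA4 fell by 16.6%, a log2 fold change (log2FC) of -0.26 (SE 0.05, adjusted p 0.000257), which with spike-in scaling was -0.09 and not past the threshold (adjusted p 0.281). SMARCA2 (ENSG00000080503.15), the alternative ATPase, had 0 to 1 counts in the GFP libraries and 12 to 14 in the SMARCB1 libraries with DMSO, where it reached 0.314, 0.328 and 0.241 CPM. It was thus above the floor in the SMARCB1 libraries only, at least 4.05-fold higher. It passed the filter only through those libraries, so no p is given. Per kilobase of spliced transcript SMARCA2 made up 0.1505% of the sum of both ATPases in SMARCB1 cells with DMSO and 0.1257% with dBRD9-A. ACTL6A (ENSG00000136518.12), the actin-related partner of the ATPase, had 95.76, 94.71 and 93.24 CPM in GFP cells and 115.0, 111.1 and 111.1 CPM in SMARCB1 cells with DMSO. The groups did not overlap, and ACTL6A rose by 0.25 on the log2 scale (SE 0.03, adjusted p 1.57e-06), with 0.42 under spike-in scaling. ACTL6B, its neuronal paralog, had 0 to 4 counts per library in the 4 groups and did not pass the filter.

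Of the scaffold genes, SMARCC1 (ENSG00000173473.6) had 312.6, 317.8 and 300.7 CPM in GFP cells and 250.7, 256.4 and 256.9 CPM in SMARCB1 cells with DMSO. All SMARCB1 libraries were lower. SMARCC1 fell by 17.9%, a log2FC of -0.29 (SE 0.04, adjusted p 1.57e-06), which with spike-in scaling was -0.12 and not past the threshold (adjusted p 0.151). Its paralog SMARCC2 (ENSG00000139613.7) had 30.5, 30.4 and 31.62 CPM in GFP cells and 32.36, 31.76 and 33.8 CPM in SMARCB1 cells with DMSO. These values did not overlap, yet lay close together, and the log2FC of 0.08 (SE 0.04, adjusted p 0.0957) did not pass. It was 0.25 (adjusted p 0.00238) with spike-in scaling. SMARCE1 (ENSG00000073584.14), an HMG-box subunit of the canonical forms, had 147.2, 145.9 and 144.6 CPM in GFP cells and 132.7, 134.3 and 134.2 CPM in SMARCB1 cells with DMSO. It fell by 8.3%, a log2FC of -0.12 (SE 0.02, adjusted p 0.000184), without overlap between the groups, whereas spike-in scaling gave 0.04 (adjusted p 0.592).

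The 3 SMARCD paralogs, of which a complex holds a single copy, took different directions. SMARCD1 (ENSG00000066117.10) had 65.38, 66.93 and 64.05 CPM in GFP cells and 74.84, 74.21 and 74.73 CPM in SMARCB1 cells with DMSO. It rose by 0.19 on the log2 scale (SE 0.03, adjusted p 3.21e-05), or 0.36 with spike-in scaling, and its groups did not overlap. SMARCD2 (ENSG00000108604.11) overlapped between the groups, with 104.5, 97.72 and 103.7 CPM in GFP cells and 101.9, 106.7 and 104.0 CPM in SMARCB1 cells (log2FC 0.03, SE 0.03, adjusted p 0.416). With spike-in scaling it was 0.20 (adjusted p 0.00752). SMARCD3 (ENSG00000082014.12), the paralog known for its part in heart and muscle development, had 33.29, 32.92 and 32.72 CPM in GFP cells and 20.99, 18.45 and 19.28 CPM in SMARCB1 cells with DMSO. Every SMARCB1 library was far below the GFP libraries. SMARCD3 fell by 40.7%, a log2FC of -0.75 (SE 0.04, adjusted p 5.42e-11), and with spike-in scaling it fell by 0.58 on the log2 scale (adjusted p 1.46e-08). It was the only 1 of the 10 genes that was lower past the threshold under both scalings in DMSO.

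**Figure D2:**
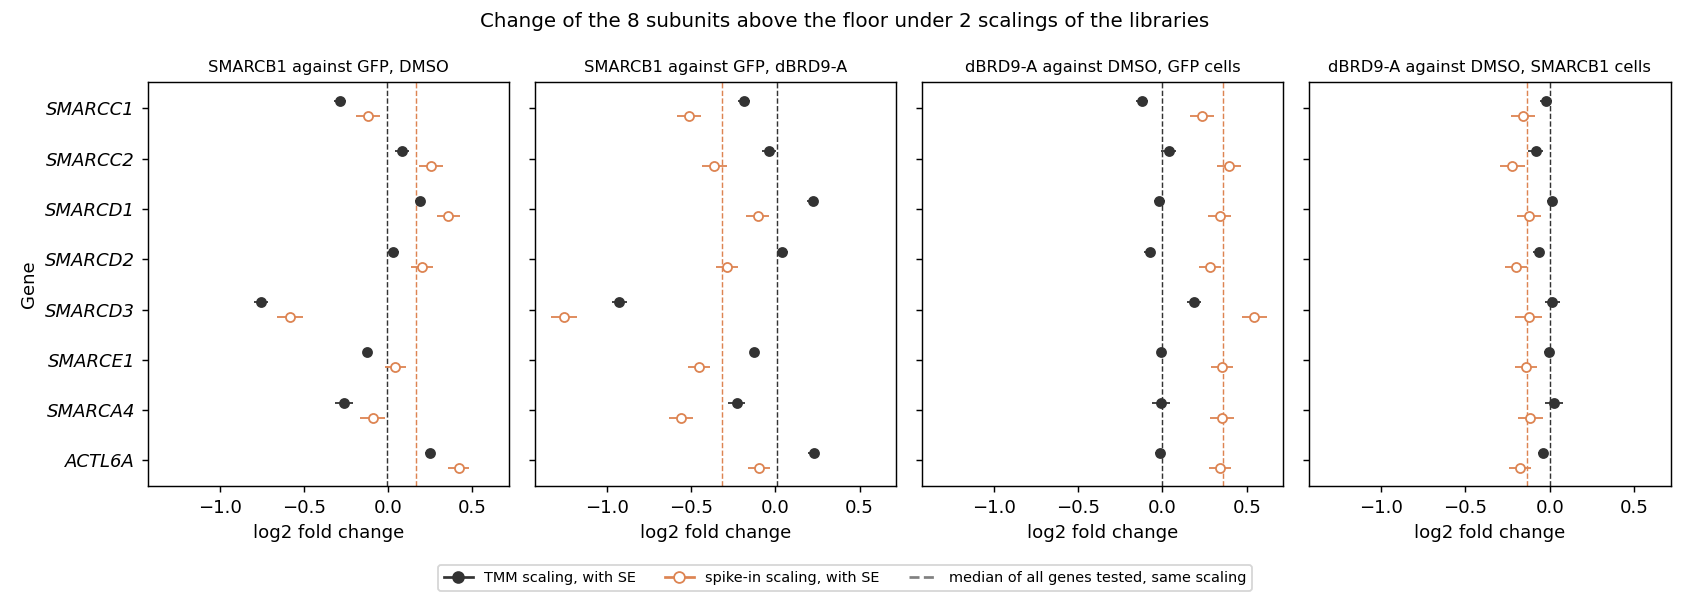
log2 fold change of the 8 genes above the floor in all groups (x axis) in each of 4 comparisons, with filled points for TMM scaling, open points for spike-in scaling, bars for the SE and dashed lines for the median of all genes tested under the same scaling. SMARCD3 lies farthest from the median in both SMARCB1 comparisons, and spike-in scaling shifts the genes together with the median, by 0.358 in GFP cells with dBRD9-A.

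The effect of SMARCB1 was next assessed in cells treated with dBRD9-A, in libraries that are none of those used in DMSO. Again 8 of the 10 genes passed, 4 higher and 4 lower, beside 63.3% of all genes tested, 33.0% higher and 30.4% lower. They were the same 8 genes with the same 8 signs as in DMSO. Among all genes, 8685 of the 8728 called in both settings (99.5%) kept their sign, and beside that share 8 of 8 says nothing about the subunits in particular. Of the 8 genes without SMARCB1 and SMARCA2, 6 passed, 2 higher and 4 lower, with a median of -0.08 beside 0.008 for all genes. With spike-in scaling the median of all genes was -0.319, and 6 of these 8 passed, 0 higher and 6 lower. Of the 15750 genes tested 11175 passed with that scaling, 2129 higher and 9046 lower.

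SMARCD3 had 37.9, 37.64 and 37.08 CPM in GFP cells and 19.91, 19.97 and 19.4 CPM in SMARCB1 cells with dBRD9-A. The groups lay far apart, and SMARCD3 fell by 47.3%, a log2FC of -0.93 (SE 0.04, adjusted p 3.54e-12; -1.25 with spike-in scaling). SMARCA4 had 228.6, 211.1 and 220.7 CPM in GFP cells and 179.5, 209.1 and 174.2 CPM in SMARCB1 cells with dBRD9-A. Replicate 2 of the SMARCB1 cells stood apart, just under the lowest GFP library. The log2FC of SMARCA4 was -0.23 (SE 0.05, adjusted p 0.000934), and it was -0.56 with spike-in scaling. SMARCC1 had 285.2, 281.2 and 288.2 CPM in GFP cells and 265.0, 235.4 and 252.0 CPM in SMARCB1 cells, a log2FC of -0.18 (SE 0.04, adjusted p 0.000217; -0.51 with spike-in scaling). SMARCE1, at 145.1 ± 1.678 CPM in GFP cells and 133.2 ± 1.516 CPM in SMARCB1 cells (SD, n = 3), had a log2FC of -0.12 (SE 0.02, adjusted p 0.000224; -0.45 with spike-in scaling). None of these 4 genes overlapped between the groups.

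With dBRD9-A, SMARCD1 was at 64.55 ± 1.547 CPM in GFP and 75.33 ± 2.115 CPM in SMARCB1 cells (SD, n = 3), a rise of 0.22 on the log2 scale (SE 0.03, adjusted p 7.13e-06) that turned to -0.10 (adjusted p 0.175) with spike-in scaling. ACTL6A went from 93.53 ± 3.797 to 109.5 ± 2.315 CPM (SD, n = 3), a rise of 0.23 (SE 0.03, adjusted p 5.96e-06) that likewise turned to -0.10 (adjusted p 0.179). Relative to the shift of all genes, these values under spike-in scaling were 0.22 for both genes. SMARCA2 had 0 to 1 counts in GFP cells and 7 to 14 in SMARCB1 cells with dBRD9-A, at least 2.95-fold higher, and it did not pass the filter when these 2 groups were fitted alone. SMARCC2 (-0.04, SE 0.04, adjusted p 0.486) and SMARCD2 (0.04, SE 0.03, adjusted p 0.262) did not pass, as in DMSO, though both were lower past the threshold with spike-in scaling, at -0.36 and -0.28.

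**Figure D3:**
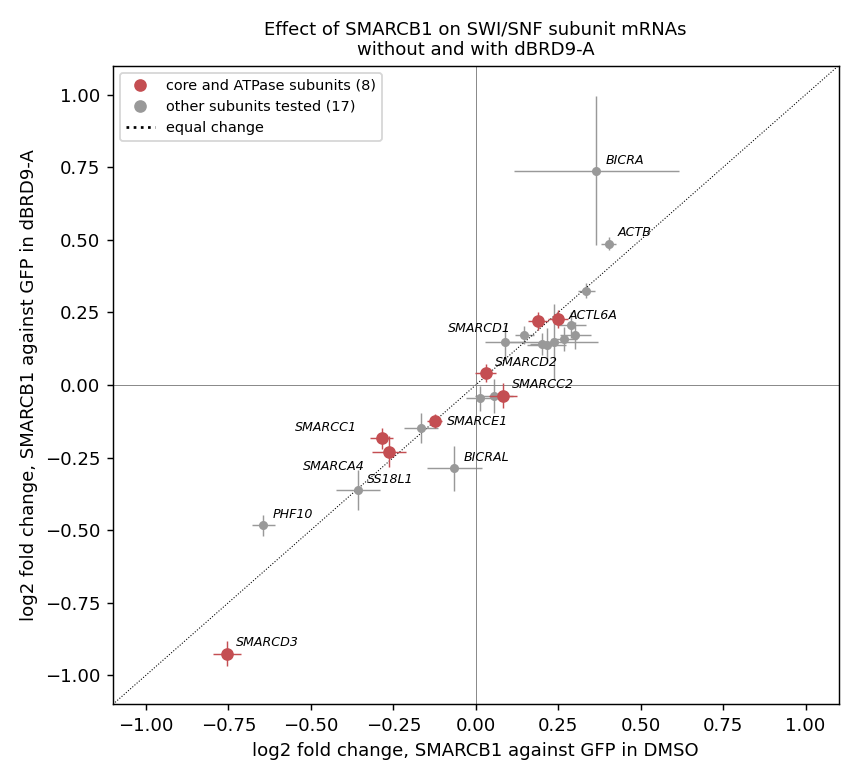
log2 fold change of SMARCB1 against GFP cells in DMSO (x axis) and in dBRD9-A (y axis) for 8 core and ATPase subunits above the floor in all groups (red) and 17 other SWI/SNF subunits (grey), with bars for the SE and a dotted line of equal change. SMARCD3, at -0.75 and -0.93, is the lowest red point in both settings.

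In GFP cells, which lack SMARCB1, dBRD9-A was set against DMSO, and 2 of the 10 genes passed, SMARCD3 higher and SMARCC1 lower. Of all genes tested 15.9% passed, 7.43% higher and 8.47% lower, so the share of the subunits was near the background. SMARCD3 rose, with 32.98 ± 0.289 CPM in DMSO and 37.54 ± 0.419 CPM in dBRD9-A (SD, n = 3), and its lowest library with dBRD9-A, at 37.08 CPM, was above the highest with DMSO, at 33.29 CPM. This was a rise of 13.9%, a log2FC of 0.19 (SE 0.04, adjusted p 0.00456), and it passed in all 12 fits that left out a library. SMARCC1 went from 310.4 ± 8.774 to 284.9 ± 3.553 CPM (SD, n = 3), with no overlap, a log2FC of -0.12 (SE 0.04, adjusted p 0.0248). That call was lost without GFP DMSO replicate 1 or 2 or GFP dBRD9-A replicate 1 or 2, with adjusted p up to 0.0942, and spike-in scaling turned it into a rise of 0.24 (adjusted p 0.00325).

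The other genes above the floor did not pass in GFP cells. SMARCD2 had 94.93, 98.55 and 96.81 CPM with dBRD9-A, overlapping its DMSO range, and a log2FC of -0.08 (SE 0.03, adjusted p 0.116). It passed without GFP DMSO replicate 2 alone (-0.11, adjusted p 0.0361). The log2FC values of SMARCA4, SMARCC2, SMARCD1, SMARCE1 and ACTL6A lay between -0.02 and 0.04, with adjusted p from 0.638 to 0.952. With spike-in scaling all 8 genes above the floor were higher past the threshold, with a median of 0.346 beside 0.358 for all genes. Of the 15750 genes tested 11310 passed with that scaling, 11083 higher and 227 lower. SMARCD3, at 0.55, was then 0.19 above the shift of all genes and SMARCC1, at 0.24, was 0.12 below it.

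In SMARCB1 cells 1 of the 10 genes passed with dBRD9-A, SMARCB1 itself, beside 1.93% of all genes tested, 0.679% higher and 1.25% lower. It went from 1875 ± 59.39 to 1307 ± 27.04 CPM (SD, n = 3), and fell by 30.3%, with a log2FC of -0.52 (SE 0.03, adjusted p 4.95e-08; -0.66 with spike-in scaling). In the 12 fits without a library the change was -0.55 to -0.51. Without SMARCB1 dBRD9-A replicate 2, 422 of 16009 genes passed in this comparison instead of 304 of 15750, and still 1 of the 10. The other 9 genes did not pass: SMARCC2 (-0.08, adjusted p 0.448) and SMARCD2 (-0.06, adjusted p 0.406) were the farthest from 0 among those above the floor in all groups. SMARCD3, which had risen in GFP cells, had overlapping libraries, at 19.58 ± 1.297 CPM without the compound and 19.76 ± 0.312 CPM with it (SD, n = 3).

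Whether SMARCB1 altered the response to dBRD9-A was tested by the interaction, the change in SMARCB1 cells minus that in GFP cells. By edgeR 0 of the 10 genes passed, beside 3.8% of all genes tested, 2.15% positive and 1.65% negative. Without SMARCB1 dBRD9-A replicate 2, 862 of 16009 genes passed instead of 598 of 15750, and still 0 of the 10. By the DESeq2 Wald test 0 passed as well, beside 621 of 12696 genes, and SMARCA2 had no adjusted p there. At an unadjusted p under 0.05 in edgeR there were 2, SMARCD3 (p 0.0132) and SMARCB1. The interaction of SMARCB1 rests on 0 to 1 counts with DMSO and 1 to 2 with dBRD9-A in GFP cells. No p is therefore given for it, and it is no sign of a response. The interaction of SMARCD3 was -0.17 (SE 0.06, adjusted p 0.163), that of SMARCC1 0.10 (SE 0.05, adjusted p 0.346) and that of SMARCC2 -0.12 (SE 0.06, adjusted p 0.351). A difference between cell states in the response of SMARCD3 or SMARCC1 was thus not shown. With spike-in scaling the interactions of all 8 genes above the floor in every group were negative past the threshold. Their median was -0.489 beside -0.491 for all genes. Of the 15750 genes tested 11270 passed with that scaling, 11204 of them negative.

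Ratios of paralogs within a library do not depend on how libraries are scaled and are given as a description, with no test. For every 100 SMARCD1 counts there were 50.92, 49.19 and 51.09 SMARCD3 counts in GFP cells with DMSO and 28.05, 24.86 and 25.81 in SMARCB1 cells with DMSO. With dBRD9-A the ratio was 57.14, 59.12 and 58.25 in GFP cells and 25.81, 27.36 and 25.57 in SMARCB1 cells. All 6 SMARCB1 libraries were below all 6 GFP libraries, and within GFP cells those with dBRD9-A were all above those with DMSO. SMARCD2 per 100 SMARCD1 counts was 155.9 ± 8.639 in GFP and 139.7 ± 3.848 in SMARCB1 cells with DMSO, and 150.0 ± 6.126 and 132.3 ± 5.243 with dBRD9-A (SD, n = 3). Per kilobase of spliced transcript SMARCD3 made up 22.99% of the 3 SMARCD genes in GFP cells and 14.33% in SMARCB1 cells with DMSO. SMARCD1 went from 24.86% to 29.74% and SMARCD2 from 52.14% to 55.94%. Per kilobase of coding sequence SMARCD3 went from 17.63% to 10.62%, SMARCD1 from 32.81% to 37.96% and SMARCD2 from 49.56% to 51.42%. For SMARCD2 the groups then met at 50.4%. The sum of the 3 genes was 200.4 ± 2.802 CPM in GFP and 198.4 ± 0.862 CPM in SMARCB1 cells with DMSO (SD, n = 3), and these sums overlapped. Unlike the ratios, such sums depend on the scaling, here TMM. With spike-in scaling the log2FC was 0.36 for SMARCD1, 0.20 for SMARCD2 and -0.58 for SMARCD3.

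The SMARCC pair was compared in the same way. SMARCC1 counts per 100 SMARCC2 counts were 1025, 1045 and 951.1 in GFP cells and 774.8, 807.3 and 760.1 in SMARCB1 cells with DMSO. With dBRD9-A they were 885.8, 851.3 and 972.0 in GFP cells and 852.1, 763.7 and 821.8 in SMARCB1 cells. The groups were apart in DMSO and overlapped by a narrow margin in dBRD9-A. Their sum on TMM-scaled library sizes, unlike that of the SMARCD genes, was lower in SMARCB1 cells with DMSO. It was 287.3 ± 3.925 CPM beside 341.2 ± 8.118 CPM in GFP cells with DMSO (SD, n = 3). This fall depends on the scaling: with spike-ins the log2FC was -0.12 for SMARCC1 (adjusted p 0.151) and 0.25 for SMARCC2 (adjusted p 0.00238). SMARCA4 per 100 SMARCC1 counts was 71.34 in GFP and 72.41 in SMARCB1 cells with DMSO, close together although both genes fell. In SMARCB1 cells with dBRD9-A that ratio was 67.75, 88.82 and 69.13, and replicate 2 stood apart.

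**Figure D4:**
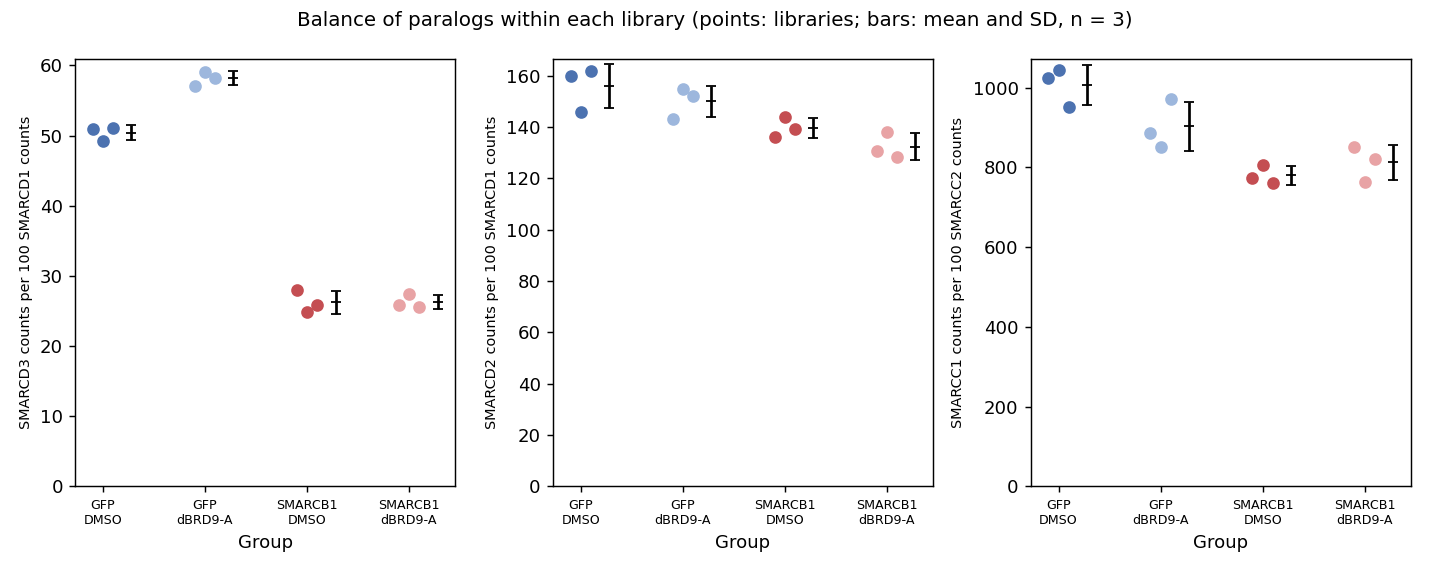
Counts of one paralog per 100 counts of another within each library, by group (x axis), for SMARCD3 over SMARCD1, SMARCD2 over SMARCD1 and SMARCC1 over SMARCC2. Points are libraries, and bars give the mean and SD of 3. SMARCD3 over SMARCD1 was 50.4 and 58.17 in the GFP groups and 26.24 and 26.25 in the SMARCB1 groups, with no overlap between the cell states.

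The other 19 subunits on the SWI/SNF list, of which 17 passed the filter (DPF3 and ACTL6B did not), were used as the setting for these changes. In DMSO 11 of the 17 passed with SMARCB1, 8 higher and 3 lower, a share near the 65.0% of all genes. With spike-in scaling 13 passed, 12 higher and 1 lower, beside 9412 of the 15750 genes tested, 6831 higher and 2581 lower. ACTB, the actin subunit, rose by 0.40 (SE 0.02, adjusted p 4.38e-11), SS18 by 0.34 and BCL7B by 0.30. PHF10, a PBAF subunit, was at 61.11 ± 1.55 CPM in GFP and 39.08 ± 0.228 CPM in SMARCB1 cells (SD, n = 3), with a log2FC of -0.64 (SE 0.04, adjusted p 2.72e-11), next to that of SMARCD3 in size. SS18L1 (-0.36) and BCL7A (-0.17) were the other falls, and with spike-in scaling only PHF10 of the 3 kept its call while BCL7A was at 0.01. In dBRD9-A 13 passed, 9 higher and 4 lower, beside 63.3% of all genes. With spike-in scaling 12 passed there, 1 higher and 11 lower, beside 11175 of all genes tested, 2129 higher and 9046 lower. The main values were led by BICRA (0.74), ACTB (0.49) and SS18 (0.33) and by PHF10 (-0.48), SS18L1 (-0.36) and BICRAL (-0.29). BICRA rested on 19 to 64 counts per library and lost its call without GFP dBRD9-A replicate 1 (adjusted p 0.0748) or SMARCB1 dBRD9-A replicate 2 (adjusted p 0.102), and with spike-in scaling neither BICRA (0.41, adjusted p 0.169) nor SS18 (-0.00, adjusted p 0.966) passed.

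With dBRD9-A 4 of the 17 passed in GFP cells, 2 higher and 2 lower, beside 15.9% of all genes. In SMARCB1 cells 1 passed, beside 1.93%. With spike-in scaling 16 passed in GFP cells, all higher, beside 11310 of the 15750 genes tested, 11083 of them higher. BICRAL, an alternative subunit of the non-canonical form, rose by 0.67 (SE 0.08) in GFP cells, from 6.094 ± 0.197 to 9.729 ± 0.716 CPM, and by 0.45 (SE 0.08, adjusted p 0.00529) in SMARCB1 cells, from 5.785 ± 0.416 to 7.981 ± 0.529 CPM (SD, n = 3). With spike-in scaling the value in SMARCB1 cells was 0.31 (adjusted p 0.0728). BCL7B rose by 0.28 in GFP cells, and PHF10 (-0.15, adjusted p 0.00739) and ACTB (-0.07, adjusted p 0.0446) were lower there, both turning to rises with spike-in scaling. Without GFP dBRD9-A replicate 2 neither passed (adjusted p 0.0501 for PHF10 and 0.0677 for ACTB), which left 2 of the 17. The call of ACTB was also lost with the replicate block (adjusted p 0.0802) and when any of 7 other libraries was left out, with adjusted p up to 0.203. In SMARCB1 cells ARID1A, singled out after its values were seen, was a second call, lower, in some alternative fits. It passed without SMARCB1 dBRD9-A replicate 2 (-0.26, adjusted p 0.0284) and by the DESeq2 Wald test (-0.20, adjusted p 0.0497). Without a count filter it passed as well (-0.19, adjusted p 0.00288). With spike-in scaling ARID1A (-0.34, adjusted p 0.0114) was the only call of the 17 in SMARCB1 cells. Of the 15750 genes tested 873 then passed there, 39 higher and 834 lower. By edgeR 0 of the 17 passed the interaction, with 2 at an unadjusted p under 0.05. By the DESeq2 Wald test 0 passed, and BICRA had no adjusted p there. With spike-in scaling 16 were negative past the threshold, as were 11204 of the 15750 genes tested.

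Some members lie over other genes on the opposite strand in GENCODE 29, and whether counting used strand is not given in the sources used here. SMARCD3 overlaps CHPF2, which averaged 2718.1 counts and rose by 1.06 with SMARCB1 in DMSO (adjusted p 4.29e-14) and by 0.96 in dBRD9-A, opposite to SMARCD3. SMARCC2 overlaps MYL6, which averaged 27166.2 counts and rose by 0.65 in DMSO and 0.73 in dBRD9-A. ACTL6A overlaps MRPL47, which had a log2FC of -0.01 in DMSO (adjusted p 0.89). The part of shared reads in the values of these members was not tested. SMARCE1 was the only member with counts that were not whole, in 2 libraries, and its 7 annotated pseudogenes averaged 0.0 to 2.9 counts.

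Genes whose pattern was most like that of each member were taken by Pearson correlation of log2 CPM over the 12 libraries, among 12576 genes with a mean of at least 50 counts. With 65.0% of genes differing between the cell states, a high r is common and is a description of shared groups only. SMARCD3 was closest to GCHFR (0.998), ID4 (0.996) and UAP1L1 (0.996). SMARCE1 was closest to ASAH1 (0.992), SMARCD1 to C1orf112 (0.992) and ACTL6A to MOV10 (0.988). SMARCA4 was closest to LONP1 (0.98) and SMARCC1 to SRPK1 (0.978), while SMARCB1, at the floor in GFP cells, was closest to CPED1, H1-1 (0.999) and ITGA6 (0.999). SMARCA2 is under that mean and was left out. The genes with no called change by SMARCB1 had lower values, with IRF3 (0.805) closest to SMARCC2 and ADIRF-AS1 (0.877) closest to SMARCD2.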

How the data were processed

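Per the labels' protocols, total RNA was purified with a column kit and libraries were made with a stranded mRNA kit. The 3 tables the authors deposited give an expected count for each gene. The submitters' processing notes name STAR, RSEM 1.3.1, DESeq2 and the build GRCh37 or hg19, without roles or order; annotation and use of strand are not given in the sources used here. The 6 libraries found in more than 1 table had 0 differing values.

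Expected counts were rounded to whole numbers. The 40 spike-in rows stayed out of library sizes and tests. Tests used edgeR 4.0.16 (R 4.3.3). Its filterByExpr with a minimum count of 10 left 15750 genes, with TMM factors of 0.9765 to 1.016. All 12 libraries entered 1 quasi-likelihood fit with a coefficient for each group, which thus shared an estimate of the spread. Adjusted p-values are Benjamini-Hochberg values over all genes tested, and genes under 0.05 passed. SEs were derived from the quasi-F statistic. The script was checked on simulated data. Libraries had 34.97 to 58.54 megacounts; the floor of 3 counts covers counting error only, because the protocols name no molecular identifiers. A fold against a group at or under the floor in every library is a lower bound, computed against the largest floor per library in that group. Symbols matched 51996 of 57820 identifiers.

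Alternatives were DESeq2 1.42.0, DESeq2 size factors, spike-in scaling, other filters, fits of the compared groups only, a replicate block and leaving out each library. Members that passed the filter only through the groups where they are high get no p between those groups. All 10 members were named; of the other subunits, the 3 largest rises and falls past the threshold per comparison, ACTL6B and ACTB were named. Overlapping genes and transcript lengths came from GENCODE 29, taking the transcript with the longest coding sequence, and may differ from the authors' annotation. No coordinates on the authors' build are given. The members and lists were chosen with earlier results of these data known.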

Additional observations from a re-analysis of the deposited data

How the results depend on the processing

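Most results kept their direction and their side of the threshold. Over the 10 genes and 5 comparisons this held for all 50 values with DESeq2 size factors, no count filter or a replicate block, for the 47 that the DESeq2 Wald test gave, for the 45 left by a filter of at least 50 counts on average (SMARCA2 was removed), and for the 37 fitted on the compared groups only, where a value past the threshold in neither fit counts as kept whatever its sign. Leaving out a library kept 595 values. The exceptions were SMARCC1 in GFP cells with dBRD9-A, lost in 4 fits, and SMARCD2 there, gained in 1, so that 1 to 2 of the 10 genes passed in that comparison over these fits. It was 1 without GFP DMSO replicate 1, GFP dBRD9-A replicate 1 or GFP dBRD9-A replicate 2. The cause was not tested. Without GFP DMSO replicate 2 the 2 were SMARCD3 and SMARCD2.

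Spike-in scaling moved most. It reversed 15 of 50 values, and 9 genes instead of 2 passed in GFP cells with dBRD9-A and 9 instead of 0 in the interaction. Of the 15750 genes tested, 11310 and 11270 passed in the same comparisons with that scaling. The 9 include SMARCB1 each time, which had only 0 to 2 counts in the GFP libraries. In GFP cells with dBRD9-A the reversed values were 0.35 for SMARCA4, 0.24 for SMARCC1, 0.34 for SMARCD1, 0.28 for SMARCD2, 0.35 for SMARCE1 and 0.34 for ACTL6A. Reversed interactions were -0.47 for SMARCA4, -0.39 for SMARCC1, -0.46 for SMARCD1, -0.48 for SMARCD2 and -0.49 for SMARCE1. For SMARCB1 against GFP cells with dBRD9-A they were -0.10 for SMARCD1, -0.28 for SMARCD2 and -0.10 for ACTL6A, and with DMSO 0.043 for SMARCE1. SMARCA4 (-0.09) and SMARCC1 (-0.12) lost their calls in DMSO. The median of all genes moved the same way in each case, and was -0.319 to 0.358 in these comparisons and -0.491 in the interaction. How the spike-ins were added is not given in the sources used here.

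Same-numbered libraries did not deviate together (r -0.056 to 0.061 over 12 pairs). This gives no sign of pairing by number but cannot exclude it, since each deviation is from a mean of only 3 libraries. With the replicate block, 8, 8, 2, 1 and 0 of the 10 genes passed in the 5 comparisons, as without it. Of the 17 other subunits, 3 instead of 4 passed with it in GFP cells with dBRD9-A, and 2 to 5 when a library was left out. For SMARCB1 against GFP cells in dBRD9-A, 12 of them instead of 13 passed with the block, and 10 to 14 when a library was left out. In SMARCB1 cells with dBRD9-A 2 of them instead of 1 passed without a count filter, by DESeq2 and without SMARCB1 dBRD9-A replicate 2. Over all genes, 304 of 15750 tested passed in SMARCB1 cells with dBRD9-A. Without a count filter it was 652 of 28732, and 159 of 15107 when those groups alone were fitted. Depth limits SMARCA2, ACTL6B and SMARCB1 in GFP cells, which were near the floor of 3 counts.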
